A study of Mus musculus with 10 samples.

Results

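The 10 genes described here encode negative feedback regulators of lipopolysaccharide (LPS) signaling: *Tnfaip3*, *Tnip1*, *Tnip3*, *Socs1*, *Socs3*, *Cish*, *Irak3*, *Zc3h12a*, *Zfp36* and *Peli1*. They were chosen by name, as the rows whose Ensembl identifier maps to these symbols, and make up 10 of the 43432 genes counted. Each symbol matched 1 identifier, and all 10 genes passed the filter on low counts that left 14172 genes for testing. RAW264.7 cells, a macrophage line of the mouse, were sequenced in 5 conditions with 2 libraries each. Cells received solvent (0.5% DMSO) or **1**, and 4 of the 5 conditions received LPS at 1 µg/mL. The groups were solvent without LPS (DMSO), solvent with LPS (DMSO + LPS), and LPS with **1** at 3.2, 10 or 32 µM. Compound **1** is a cyanobacterial fatty acid, hexadec-7-enoic acid with an *E* double bond and a keto group on carbon 9 next to it. It was given 1 h before LPS, and RNA was taken after 12 h. No group received **1** without LPS, so every value for **1** is from stimulated cells.

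LPS, a component of the outer membrane of Gram-negative bacteria, is sensed by macrophages through TLR4. Adaptor proteins, IRAK kinases and ubiquitin ligases pass the signal to NF-κB and MAP kinases, and cytokines made in response are then read through JAK kinases and STAT factors. The proteins encoded by the genes in question act back on this chain. A20 (*Tnfaip3*) and its binding partners ABIN-1 (*Tnip1*) and ABIN-3 (*Tnip3*) restrain ubiquitin-dependent signaling to NF-κB. IRAK-M (*Irak3*) interferes with signaling by the other IRAK proteins at the receptor, and Pellino-1 (*Peli1*) is a ubiquitin ligase of that complex with both activating and limiting roles described. SOCS1, SOCS3 and CIS (*Cish*) limit cytokine receptor signaling through JAK and STAT. Tristetraprolin (*Zfp36*) and Regnase-1 (*Zc3h12a*) promote the decay of cytokine mRNAs.

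Library totals lay between 45966803 and 58976377 counts. All 10 macrophage markers examined were detected in every library. Of 16 markers of other cell types, *Cd3e*, *Ncr1* and *Mcpt4* had 0 counts in every library, and most of the summed level came from *Ctsk*, at 75.4 to 90.2 CPM (counts scaled to the library total). A library at each dose of **1** stood apart from the rest. Replicate 1 at 10 µM held 451 counts of *Epcam*, 160 of *Col3a1*, 86 of *Col1a2* and 43 of *Col1a1*, markers of epithelial cells and fibroblasts, of which *Epcam*, *Col3a1* and *Col1a2* had at most 2, 1 and 0 counts in 8 of the other libraries. Replicate 1 at 3.2 µM held 78, 24 and 6 counts of these 3 genes. *Col1a1* had at most 6 counts outside replicate 1 at 10 µM. That library also held 39 counts of the neutrophil marker *Ly6g* and 24 of the endothelial marker *Pecam1*, against at most 5 and 14 in the others. Replicate 2 at 32 µM had 3.98% of its counts in ribosomal RNA features, against 0.176% to 0.383% in the others. Calls that changed when one of these libraries was left out are given beside the result or with the alternatives at the end.

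Because the members share a response to LPS, the 250 bases before their annotated starts are of interest for motifs of the transcription factors NF-κB, STAT and AP-1. RefSeq promoter sequences on GRCm38.p6 were matched for all 10 genes, in 12 windows. The windows were searched on both strands for TTCNNNGAA (STAT), TGACTCA (AP-1) and the 10-letter NF-κB consensus. Of 32851 promoter windows of this length, 7.02% held the STAT letters, 7.25% the NF-κB consensus and 4.46% the AP-1 letters. At least 1 match was found in 5 members, whose windows are printed 5′ to 3′ on the gene's strand with the matched letters in capitals. These windows are shown because they hold a match. The percentages above are for single motifs and single windows. No share was computed for a match to any of these motifs, so the 5 members have no background value.
Tnfaip3, chr10:19015411-19015660, minus strand: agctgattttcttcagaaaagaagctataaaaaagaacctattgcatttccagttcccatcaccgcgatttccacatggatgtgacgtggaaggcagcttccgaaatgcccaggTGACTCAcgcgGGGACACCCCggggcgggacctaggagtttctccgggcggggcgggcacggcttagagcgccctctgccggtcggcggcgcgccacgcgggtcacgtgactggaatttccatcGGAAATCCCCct
Tnip1, chr11:54962941-54963190, minus strand: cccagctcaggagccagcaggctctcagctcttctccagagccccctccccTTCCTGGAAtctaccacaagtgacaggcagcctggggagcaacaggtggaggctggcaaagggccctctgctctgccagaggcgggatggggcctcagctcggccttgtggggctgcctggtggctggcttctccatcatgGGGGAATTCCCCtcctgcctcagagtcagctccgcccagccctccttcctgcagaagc
Tnip3, chr6:65590148-65590397, plus strand: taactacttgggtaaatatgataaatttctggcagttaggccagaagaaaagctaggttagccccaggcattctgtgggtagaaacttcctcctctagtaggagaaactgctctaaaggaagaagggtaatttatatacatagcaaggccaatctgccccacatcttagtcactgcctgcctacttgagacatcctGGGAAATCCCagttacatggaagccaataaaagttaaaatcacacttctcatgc
Socs3, chr11:117969367-117969616, minus strand: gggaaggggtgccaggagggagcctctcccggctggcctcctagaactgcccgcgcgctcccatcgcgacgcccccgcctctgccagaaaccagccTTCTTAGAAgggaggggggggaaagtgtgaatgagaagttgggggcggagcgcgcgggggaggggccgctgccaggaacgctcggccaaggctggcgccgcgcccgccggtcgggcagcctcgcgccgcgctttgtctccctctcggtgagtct
Zfp36, chr7:28379229-28379478, minus strand: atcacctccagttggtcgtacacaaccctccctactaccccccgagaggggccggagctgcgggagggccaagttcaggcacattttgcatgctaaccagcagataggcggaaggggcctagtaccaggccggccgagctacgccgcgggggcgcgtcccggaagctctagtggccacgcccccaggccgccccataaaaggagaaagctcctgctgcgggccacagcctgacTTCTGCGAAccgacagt
*Tnfaip3* has 2 windows, and the one not printed, chr10:19011964-19012213, held 0 matches. The printed *Tnfaip3* window held 2 NF-κB matches and 1 AP-1 match, and 110 of its 250 bases are exonic in GENCODE. One NF-κB match ended 3 bases before the start. The capitals in *Tnip1* are 1 STAT match and, closer to the start, 3 NF-κB matches that overlap each other. This window lies upstream of the annotated gene. *Tnip3* held 1 NF-κB match in a window that is intronic in GENCODE, where longer transcripts begin upstream. The 77 of 250 exonic bases of the *Socs3* window and the wholly exonic *Zfp36* window come from longer GENCODE transcripts that begin upstream. For *Socs3* the bases after the RefSeq start did not lie in a GENCODE transcript of the gene, unlike those of the other 4 printed windows. Each of these windows held 1 STAT match, and that of *Zfp36* began 17 bases before the RefSeq start. A match describes letters in the window, and binding was not measured.

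**Figure D1:**
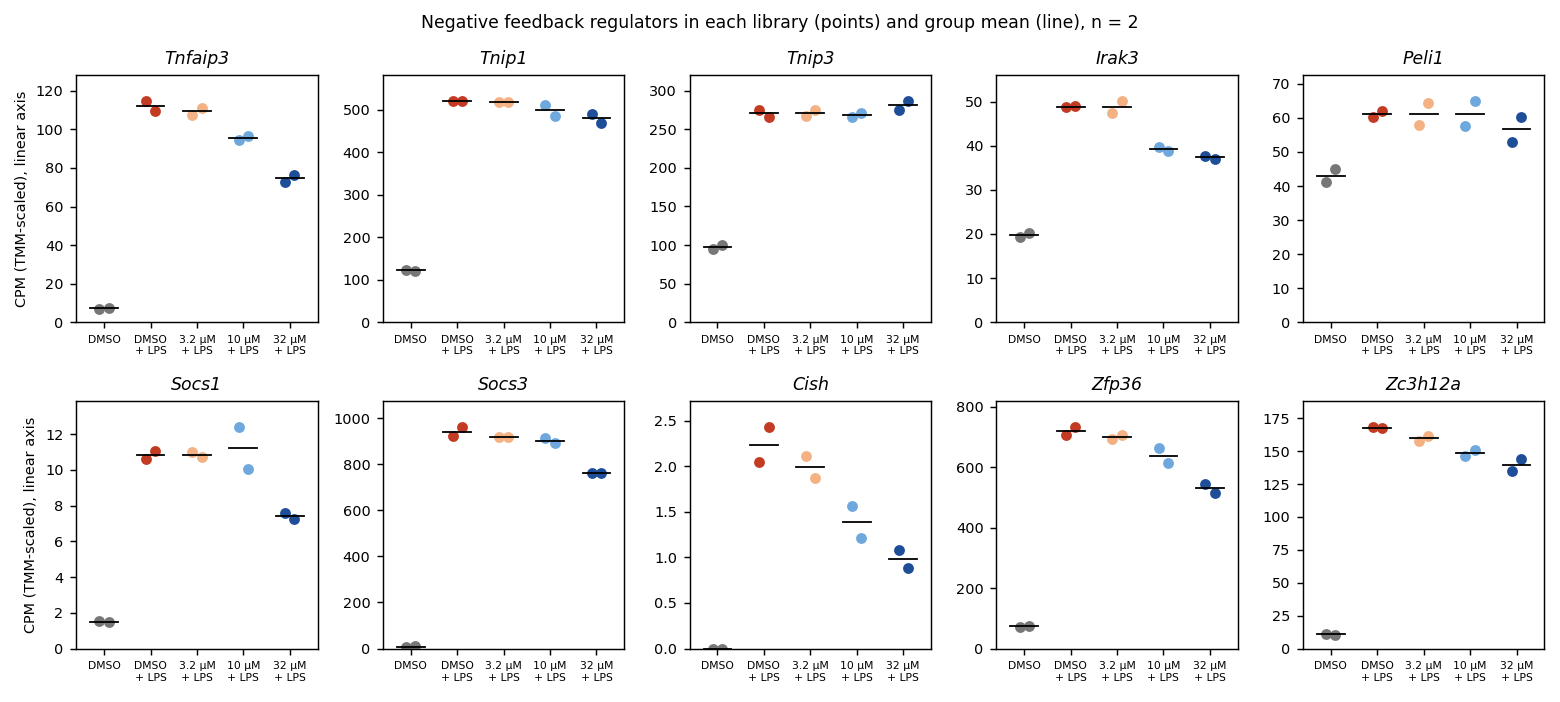
CPM (scaled library totals, linear axis from 0) of each of the 10 genes in every library, with points for the 2 libraries of a condition and a line for their mean. All genes sit lowest in DMSO, and *Cish* has 0 counts there. At 32 µM, *Tnfaip3*, *Socs1*, *Cish*, *Irak3*, *Zfp36* and *Socs3* sit below DMSO + LPS in both libraries, whereas *Tnip3* sits above it.

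The first question was how far LPS raised these genes in solvent-treated cells. All 10 were higher in both DMSO + LPS libraries than in both DMSO libraries, and 9 of 10 were called higher, which means a change of 1.5-fold or more and an adjusted p below 0.05. Of all genes tested, 14.6% were called higher and 38.2% had both libraries above both. Without the fold cutoff, 10 of 10 had an adjusted p below 0.05, against 25.2% of all genes in this direction. The exception to the calls was *Peli1*, whose rise was below 1.5-fold. The median log2 fold change of the members was 3.06, and that of all genes was 0.0026. As these are bulk samples, more RNA per cell and more cells expressing a gene cannot be told apart.

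The second question was what **1** did to the same genes in LPS-stimulated cells. At 32 µM, 2 of 10 were called lower than in DMSO + LPS (*Tnfaip3* and *Cish*), against 2.91% of all genes, and none was called higher, against 1.27%. Without the fold cutoff, 7 of 10 were lower with an adjusted p below 0.05, against 5.72% of all genes. These 7 were *Tnfaip3*, *Cish*, *Socs1*, *Zfp36*, *Irak3*, *Socs3* and *Zc3h12a*. Both libraries were below both DMSO + LPS libraries for 8 members (24.3% of all genes) and above them for 1, *Tnip3* (25.7% of all genes). The median log2 fold change was -0.34, beside 0.0082 for all genes. At 10 µM, 0 of 10 were called by edgeR, 5 had an unadjusted p below 0.05 and 1, *Irak3*, had an adjusted p below 0.05. Of all genes, 0.579% were called lower at this dose, 12.1% had such an unadjusted p in either direction and 1.7% had such an adjusted p with a lower level, and 0.282% were called higher. DESeq2 also called 0 at 10 µM. Members lower there with an adjusted p below 0.05 numbered 3 with DESeq2's Wald test, 2 with a mean of at least 5 CPM, 5 with a score of each library for short transcripts in the fit, and 0 without some single libraries. At 3.2 µM, 0 of 10 were called, as were 0% of all genes, and 0 had an unadjusted p below 0.05, which 4.23% of all genes had. DESeq2 called 0 of 10 there. The call count at 32 µM depended on single libraries. It was 0 without replicate 1 of DMSO + LPS or of 32 µM, and 1 without replicate 2 of DMSO + LPS, of 3.2 µM or of 32 µM. The count of 7 without the fold cutoff became 4 without either DMSO + LPS library or replicate 1 at 32 µM, 5 without replicate 2 at 32 µM and 6 without replicate 2 at 3.2 µM. It was 6 with edgeR on the 4 libraries compared, 6 of 9 tested with a mean of at least 5 CPM, and 9 with the short-transcript score, which added *Tnip1* and *Peli1*. *Tnfaip3*, *Zfp36*, *Irak3* and *Socs3* kept an adjusted p below 0.05 under every alternative run.

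**Figure D2:**
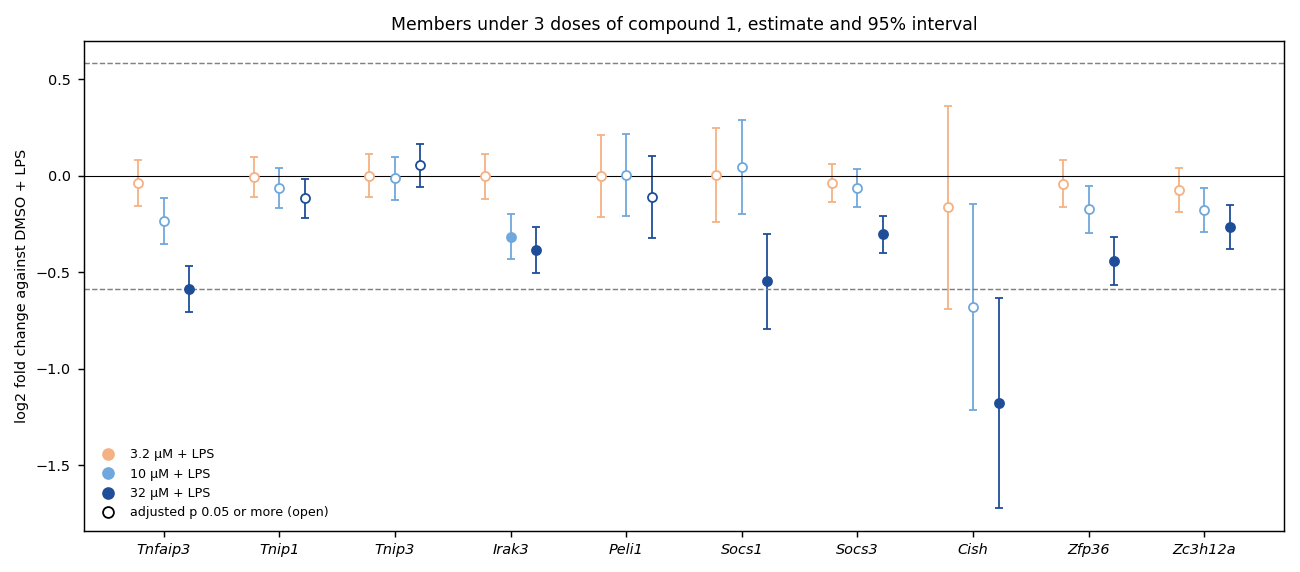
log2 fold change against DMSO + LPS (points) with 95% intervals from edgeR for the 10 genes at 3.2, 10 and 32 µM of **1**. Filled points have an adjusted p below 0.05 and dashed lines mark 1.5-fold. Filled points appear for 7 genes at 32 µM and for *Irak3* at 10 µM.

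*Tnfaip3* encodes A20, a ubiquitin-editing enzyme that ends NF-κB activation. Its level was 6.96 and 7.45 CPM in the DMSO libraries, 115 and 110 CPM in DMSO + LPS, 108 and 111 CPM at 3.2 µM, 94.3 and 96.7 CPM at 10 µM, and 72.9 and 76.3 CPM at 32 µM. The 10 and 32 µM libraries were all below DMSO + LPS and did not overlap each other, whereas 3.2 µM overlapped DMSO + LPS. LPS raised *Tnfaip3* 15.6-fold (log2 fold change 3.96, SE 0.0597, adjusted p = 2.73e-09). At 32 µM it fell by 33.5% (log2 fold change -0.59, SE 0.0518, adjusted p = 0.000239), a value just past the 1.5-fold cutoff. The difference at 10 µM was -0.23 on the log2 scale (SE 0.0515, adjusted p = 0.0685). Its adjusted p was 0.00647 with DESeq2's Wald test, 0.000743 with the short-transcript score and 0.0376 with a mean of at least 5 CPM, and above 0.05 under the other alternatives. Between 10 and 32 µM the difference was -0.36 (SE 0.0518, adjusted p = 0.0104), which became 0.0926 and 0.0517 without replicate 1 or 2 at 32 µM and 0.229 with edgeR on the 4 libraries compared.

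*Tnip1* and *Tnip3* encode ABIN proteins, which bind A20 and ubiquitin chains. *Tnip1* was at 122 and 121 CPM in DMSO, 519.9 and 519.8 CPM in DMSO + LPS, 518 and 517 CPM at 3.2 µM, 511 and 485 CPM at 10 µM, and 490 and 468 CPM at 32 µM. Every library with **1** was below both DMSO + LPS libraries, which differed little from each other. The rise with LPS was 4.27-fold (log2 fold change 2.09, SE 0.0462, adjusted p = 1.61e-08). The difference at 32 µM was -0.12 on the log2 scale, with a 95% interval from -0.22 to -0.014, and did not pass the test (adjusted p = 0.166). With the short-transcript score it was -0.11 with an adjusted p of 0.0202, the one alternative under which *Tnip1* passed 0.05. *Tnip3* was at 94.8 and 101 CPM in DMSO, 274 and 266 CPM in DMSO + LPS, 266 and 274 CPM at 3.2 µM, 266 and 270 CPM at 10 µM, and 275 and 286 CPM at 32 µM. The 3.2 and 10 µM libraries overlapped DMSO + LPS, and the 32 µM libraries were the highest of all 10. LPS raised *Tnip3* 2.77-fold (log2 fold change 1.47, SE 0.0491, adjusted p = 1.35e-07). At 32 µM the difference was 0.055 on the log2 scale, with an interval from -0.056 to 0.17 (adjusted p = 0.608), which does not reach a loss of the size measured for *Tnfaip3*. Whether *Tnip3* and *Tnfaip3* differed in their change was not tested.

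*Irak3* encodes IRAK-M, a receptor-proximal inhibitor found mainly in monocytes and macrophages. It was at 19.4 and 20.3 CPM in DMSO, 48.7 and 48.9 CPM in DMSO + LPS, 47.3 and 50.1 CPM at 3.2 µM, 39.7 and 38.8 CPM at 10 µM, and 37.7 and 37.1 CPM at 32 µM. The 4 libraries at 10 and 32 µM lay below every other LPS library, and the 3.2 µM libraries lay on either side of DMSO + LPS. LPS raised it 2.46-fold (log2 fold change 1.30, SE 0.0523, adjusted p = 3.72e-07). *Irak3* fell by 23.4% at 32 µM (log2 fold change -0.39, SE 0.0513, adjusted p = 0.00236). At 10 µM it fell by 19.6% (log2 fold change -0.31, SE 0.0512, adjusted p = 0.0197). Without replicate 1 at 10 µM, the library with the most *Epcam* counts, this difference was -0.33 with an adjusted p of 0.0695. The adjusted p was also above 0.05 without replicate 2 at 10 µM (0.0521), without either 3.2 µM library (0.0526 and 0.0523), without either DMSO + LPS library (0.166 and 0.173) and with edgeR on the 4 libraries compared (0.188). The 2 doses differed by -0.070 (adjusted p = 0.686). In the annotation, *Irak3* shares 192 exonic bases with *Tmbim4* on the other strand, which had 1846 to 2694 counts per library. Whether the counting used the strand is not given in the sources used here, so reads in this stretch cannot be assigned with certainty.

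*Peli1* encodes Pellino-1, a ubiquitin ligase that binds IRAK proteins. It was at 41.2 and 44.9 CPM in DMSO, 60.2 and 62.1 CPM in DMSO + LPS, 57.9 and 64.3 CPM at 3.2 µM, 57.6 and 64.9 CPM at 10 µM, and 52.9 and 60.4 CPM at 32 µM. Both DMSO libraries were the lowest, and the libraries with LPS overlapped at every dose. Its LPS rise was 1.42-fold (log2 fold change 0.51, SE 0.0919, adjusted p = 0.00214). The estimate was 0.60, past the fold cutoff, when each library's score for short transcripts was added to the fit. At 32 µM the difference from DMSO + LPS was -0.11 on the log2 scale, with an interval from -0.32 to 0.10 (adjusted p = 0.584). The score gave -0.14 with an adjusted p of 0.0456.

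*Socs1*, *Socs3* and *Cish* encode SH2-domain proteins of one family. *Socs1* was at 1.56 and 1.46 CPM in DMSO, 10.6 and 11.1 CPM in DMSO + LPS, 10.98 and 10.74 CPM at 3.2 µM, 12.4 and 10.0 CPM at 10 µM, and 7.56 and 7.28 CPM at 32 µM. The 32 µM libraries lay between DMSO and all other LPS libraries, and the 10 µM libraries spanned the DMSO + LPS range on both sides. LPS raised *Socs1* 7.15-fold (log2 fold change 2.84, SE 0.119, adjusted p = 4.45e-07). At 32 µM it fell by 31.6% (log2 fold change -0.55, SE 0.106, adjusted p = 0.0151), which is within the 1.5-fold cutoff. The adjusted p was 0.0778 and 0.105 without replicate 1 or 2 of DMSO + LPS, and 0.0623 and 0.0907 without replicate 1 or 2 at 32 µM. *Socs1* was the one member called lower at 32 µM than at 10 µM (log2 fold change -0.59, SE 0.107, adjusted p = 0.0269), where 1.15% of all genes were called lower. Without replicate 1 at 10 µM this difference was -0.43 (adjusted p = 0.0878), and without any one of the DMSO + LPS, 3.2 µM or 32 µM libraries it was -0.57 to -0.62 and also not called.

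*Socs3*, a feedback inhibitor of IL-6-family cytokine receptors, had the largest rise with LPS among the 9 members with counts in DMSO. It was at 8.57 and 9.02 CPM in DMSO, 922 and 959 CPM in DMSO + LPS, 919 and 916 CPM at 3.2 µM, 912 and 891 CPM at 10 µM, and 761 and 763 CPM at 32 µM. The 32 µM libraries were below all other LPS libraries, which lay close together. LPS raised it 107-fold (log2 fold change 6.74, SE 0.0547, adjusted p = 1.34e-10). *Socs3* fell by 19.0% at 32 µM (log2 fold change -0.30, SE 0.0421, adjusted p = 0.00282), and the difference at 10 µM was -0.062 (adjusted p = 0.687).

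*Cish*, whose product CIS is best known downstream of STAT5, was the least abundant member. Its 2 libraries held 0 and 0 counts without LPS and 117 and 114 counts in DMSO + LPS. With 3.2 µM of **1** there were 98 and 94 counts, with 10 µM 73 and 55 counts, and with 32 µM 53 and 40 counts. After scaling, the levels were 2.04 and 2.43 CPM in DMSO + LPS, 2.11 and 1.88 CPM at 3.2 µM, 1.57 and 1.22 CPM at 10 µM, and 1.08 and 0.885 CPM at 32 µM. The 3 groups DMSO + LPS, 10 µM and 32 µM did not overlap, and 3.2 µM overlapped DMSO + LPS. Against a floor of 3 counts per library, which is 0.0529 CPM, LPS raised *Cish* at least 42.3-fold. At 32 µM it fell by 55.8% (log2 fold change -1.18, SE 0.229, adjusted p = 0.0207), with an interval from -1.72 to -0.63. The adjusted p was 0.0746 and 0.140 without replicate 1 or 2 of DMSO + LPS, 0.0502 without replicate 2 at 3.2 µM, and 0.0611 and 0.127 without replicate 1 or 2 at 32 µM. The difference at 10 µM was -0.68 (SE 0.225, adjusted p = 0.266, and 0.0351 with the short-transcript score). The annotation places *Gm17041* and *Gm17040* on the opposite strand of *Cish* exons, and these had 0 and at most 1 counts.

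*Zfp36* encodes tristetraprolin, which binds AU-rich elements and recruits the mRNA decay machinery. It was at 72.8 and 75.5 CPM in DMSO, 707 and 731 CPM in DMSO + LPS, 693 and 705 CPM at 3.2 µM, 662 and 614 CPM at 10 µM, and 543 and 515 CPM at 32 µM. Each step up in dose from 3.2 µM gave a group wholly below the one before it. LPS raised *Zfp36* 9.70-fold (log2 fold change 3.28, SE 0.0576, adjusted p = 5.36e-09). At 32 µM it fell by 26.4% (log2 fold change -0.44, SE 0.0528, adjusted p = 0.00128), and against 10 µM the difference was -0.27 (SE 0.0527, adjusted p = 0.0404). The latter lost an adjusted p below 0.05 without any one library other than replicate 2 at 10 µM, at 0.0613 to 0.256. It was also lost with library size alone (0.0534), the likelihood ratio test (0.118) and edgeR on the 4 libraries compared (0.546). At 10 µM the difference from DMSO + LPS was -0.17 (adjusted p = 0.194, 0.0382 with DESeq2's Wald test and 0.00822 with the short-transcript score).

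*Zc3h12a* encodes Regnase-1, an endonuclease that cleaves stem-loop-containing cytokine mRNAs. It was at 10.97 and 10.41 CPM in DMSO, 168.1 and 167.9 CPM in DMSO + LPS, 158 and 162 CPM at 3.2 µM, 146 and 151 CPM at 10 µM, and 135 and 144 CPM at 32 µM. The groups with LPS were ordered by dose without overlap. The rise with LPS was 15.7-fold (log2 fold change 3.97, SE 0.0563, adjusted p = 2.22e-09). *Zc3h12a* fell by 16.9% at 32 µM (log2 fold change -0.27, SE 0.0490, adjusted p = 0.0115). The adjusted p was 0.089 and 0.0847 without replicate 1 or 2 of DMSO + LPS, 0.0861 without replicate 1 at 32 µM and 0.0518 with edgeR on the 4 libraries compared. The difference at 10 µM was -0.18 (SE 0.0489, adjusted p = 0.145), with an adjusted p of 0.00571 when the short-transcript score was in the fit.

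**Figure D3:**
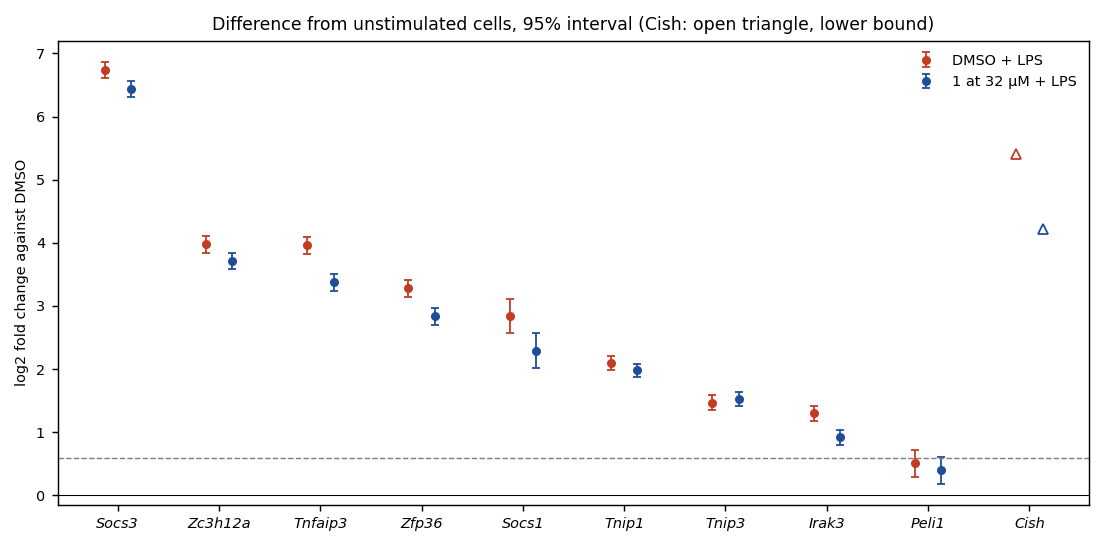
log2 fold change against DMSO with 95% intervals for DMSO + LPS (red) and for **1** at 32 µM with LPS (blue). Open triangles for *Cish* are lower bounds from the floor of 3 counts, and the dashed line marks 1.5-fold. At 32 µM, 9 of 10 genes remained past the line, and *Peli1* lay below it in both groups.

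The members thus remained raised in the presence of **1**. At 32 µM with LPS, 9 of 10 were called higher than in DMSO, against 13.9% of all genes, and both of their libraries were above both DMSO libraries for 10 of 10 (35.8% of all genes). Fold changes against DMSO ranged from 1.32 for *Peli1*, which was not called, and 1.89 for *Irak3* to 86.6 for *Socs3*, with *Cish* at least 18.6-fold higher. The share of the LPS rise that was left at each dose was computed as the CPM above DMSO, in percent of that in DMSO + LPS. At 32 µM it was 44.0% ± 6.27 (SD, n = 2) for *Cish*, 60.6% ± 1.64 for *Irak3*, 63.3% ± 2.15 for *Socs1* and 64.2% ± 2.33 for *Tnfaip3*. *Zfp36* kept 70.6% ± 3.06, *Socs3* 80.8% ± 0.194, *Zc3h12a* 82.0% ± 4.12, *Tnip1* 89.9% ± 3.92 and *Tnip3* 106% ± 4.51. For *Peli1*, whose rise was small, the share of 75.2% had an SD of 29.3. The order of the members had *Cish* lowest and the ABIN genes highest, and the libraries of *Socs1* and *Tnfaip3* overlapped. Those of *Socs3*, at 80.7% and 81.0%, lay between those of *Zc3h12a*, at 79.1% and 84.9%. At 10 µM the lowest shares were 62.3% ± 11.1 for *Cish* and 67.0% ± 2.27 for *Irak3*, and the other members with a called rise lay between 84.1% for *Tnfaip3* and 104% ± 17.9 for *Socs1*. At 3.2 µM all lay between 89.3% and 100.2%. The SD covers the treated libraries only, since the DMSO and DMSO + LPS means are taken as fixed.

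**Figure D4:**
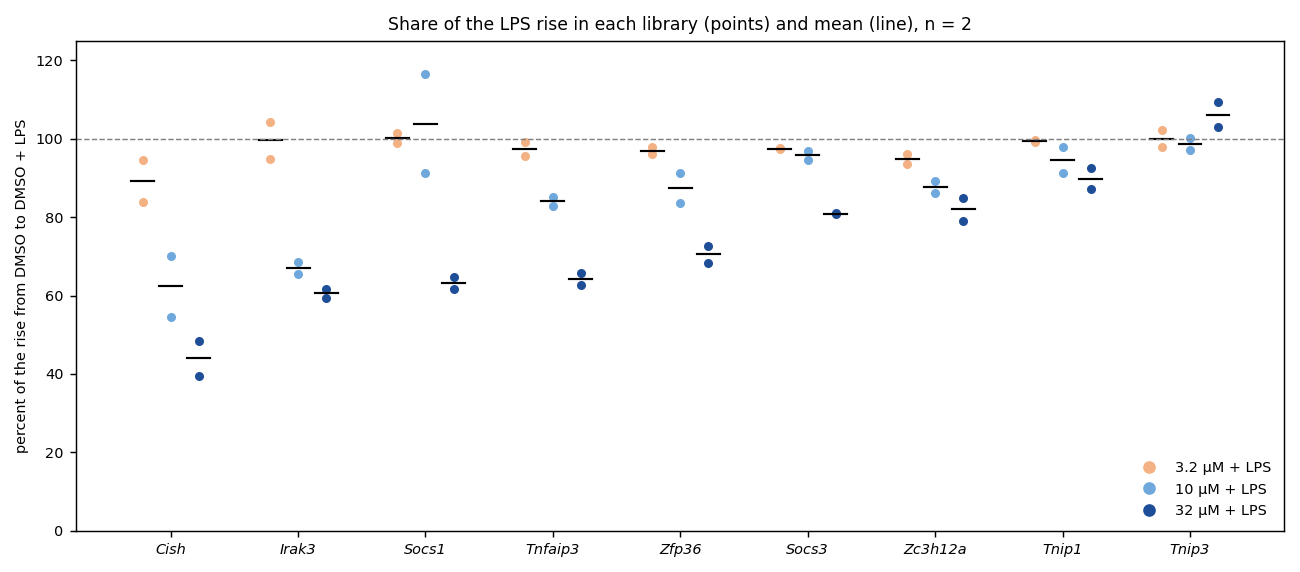
Percent of the LPS rise (CPM above the DMSO mean, relative to DMSO + LPS) in each library of 3 doses of **1**, for the 9 genes with a called rise, ordered by the mean at 32 µM. Points are libraries and lines are means. *Cish* is lowest at 44.0% and *Tnip3* is at 106%.

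Levels were compared between members per length of exons, as CPM divided by length in kilobases (RPKM). In DMSO, *Tnip1* had the highest RPKM (34.4), followed by *Zfp36* (21.4), *Tnip3* (8.95), *Peli1* (6.57), *Irak3* (5.39), *Zc3h12a* (3.71), *Socs3* (3.04), *Tnfaip3* (0.997) and *Socs1* (0.520), with *Cish* at 0. The order changed with LPS. In DMSO + LPS, *Socs3* was first with an RPKM of 325, followed by *Zfp36* (207), *Tnip1* (147), *Zc3h12a* (58.3), *Tnip3* (24.8), *Tnfaip3* (15.5), *Irak3* (13.3), *Peli1* (9.33), *Socs1* (3.73) and *Cish* (0.348). With the length of the longest transcript in place of all exons, *Irak3* and *Peli1* changed places. At 32 µM the order by RPKM was that of DMSO + LPS, from 264 for *Socs3* to 0.153 for *Cish*, and *Tnfaip3* (10.3) and *Irak3* (10.2) differed by less than the spread of *Tnfaip3*. With the longest transcript, *Tnip3* came before *Zc3h12a* at this dose and *Tnfaip3* fell to rank 8.

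Related genes were examined as lists. Of 17 tested paralogs of the members, 3 were called higher and 1 lower with LPS, where 14.6% of all genes were called higher and 13.6% lower. Those higher were *Irak2*, a kinase of the receptor complex (log2 fold change 2.25), *Zc3h12c* (2.73) and *Socs2* (3.29), and the one lower was *Zfp36l2* (-1.58). At 32 µM 1 of the 17 was called lower (2.91% of all genes) and 2 were called higher (1.27% of all genes). The paralog called lower was *Socs2*, an inhibitor of growth hormone signaling (-1.92, SE 0.417), from 1.21 ± 0.183 to 0.319 ± 0.0179 CPM. *Zfp36l2* (0.64) and *Zc3h12c* (0.60) were called higher at 32 µM, where the members *Zfp36* and *Zc3h12a* were lower. The difference between paralog and member was not tested. The count of called paralogs at 32 µM was 0 without replicate 1 of DMSO + LPS or replicate 2 at 32 µM, and 1 without replicate 2 of DMSO + LPS. The median log2 fold change of the paralogs was 0.043 with LPS and 0.13 at 32 µM.

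Of 32 other inhibitors of TLR4 and NF-κB signaling, 14 were called higher and 3 lower with LPS, beside 14.6% and 13.6% of all genes. Their median log2 fold change was 0.37, and that of all genes 0.0026. The highest were *Il10*, an anti-inflammatory cytokine (5.76), *Il1rn*, the IL-1 receptor antagonist (3.70), and *Usp18*, an inhibitor of interferon receptor signaling (3.51), and the lowest was *Il1rl1* (-1.49). At 32 µM 6 were called lower (2.91% of all genes), with a median of -0.091 (0.0082 over all genes). These were *Il1rn* (-1.40), *Usp18* (-1.40), *Trim30a* (-1.27), *Nlrc5* (-1.26), *Il10* (-1.12) and *Trafd1* (-1.07). The size of each of these exceeded that of *Tnfaip3* (-0.59), and that of the first 4 also exceeded that of *Cish* (-1.18). *Il1rn* was also called lower at 10 µM (-0.68, adjusted p = 0.000348). Whether these genes and the members differed in their change was not tested.

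Of 24 genes of the TLR4 receptor and its transducers, 6 were called higher and 2 lower with LPS, beside 14.6% and 13.6% of all genes. *Cd14*, the LPS co-receptor, rose (1.54), as did the adaptors *Ticam1* (1.53) and *Myd88* (0.75), whereas *Tlr4* (-1.09) and the adaptor *Ticam2* (-1.29) fell. At 32 µM 0 of the 24 were called by edgeR, beside 2.91% of all genes called lower and 1.27% higher, and 0 by DESeq2. Of the 24, 12 had an unadjusted p below 0.05 (22.2% of all genes). An adjusted p below 0.05 and a lower level were found for 3 (5.72% of all genes). The median was 0.020. Of 29 genes of cytokines, receptors, kinases and STATs of the JAK-STAT pathway, which the SOCS proteins oppose, 14 were called higher and 3 lower with LPS, again beside 14.6% and 13.6% of all genes. At 32 µM 7 were called lower (2.91% of all genes), with a median of -0.12. *Ifnb1*, encoding interferon β, fell from 1.14 ± 0.132 to 0.244 ± 0.00135 CPM (-2.21). *Il6* fell from 96.8 ± 3.06 to 26.1 ± 4.07 CPM (-1.89), and *Stat2*, a subunit of the interferon-activated factor ISGF3, from 199 ± 8.09 to 72.6 ± 1.60 CPM (-1.45). *Il6* (-0.96) and *Stat2* (-0.65) were also called lower at 10 µM.

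The mRNAs known as targets of tristetraprolin or Regnase-1 form a list of 17 tested genes that includes *Zfp36* and *Zc3h12a* themselves and shares *Il6*, *Il10*, *Lif* and *Csf2* with the lists above. With LPS 16 of 17 were called higher (14.6% of all genes), with a median log2 fold change of 5.62 when the 3 genes at 0 counts in DMSO are set to their lower bound. At 32 µM 7 were called lower (2.91% of all genes), with a median of -0.68. *Ccl2*, a monocyte chemokine, fell from 853 ± 12.4 to 161 ± 1.05 CPM (-2.41), and *Il1b*, encoding IL-1β, from 1535 ± 8.57 to 475 ± 6.47 CPM (-1.69). *Lif* (-1.04), *Ccl3* (-1.01) and *Nfkbiz* (-0.68) were also called lower. At 10 µM the calls were *Ccl2* (-1.03), *Il6* and *Il1b* (-0.84). The other 10 of the 17, both decay factors included, were not called at 32 µM. *Cxcl2* (0.44) and *Ptgs2* (0.39), chosen after their values were seen, had higher means there than in DMSO + LPS. RNA decay was not measured.

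**Figure D5:**
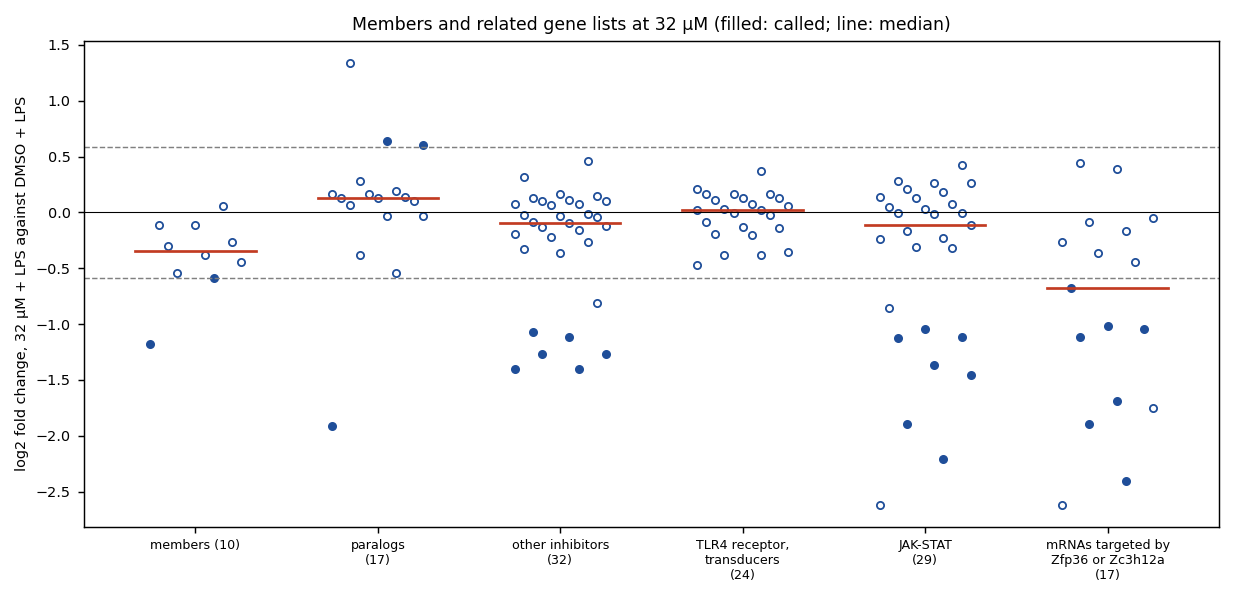
log2 fold change at 32 µM with LPS against DMSO + LPS for the 10 members and the tested genes of 5 related lists (numbers in parentheses). Filled points are called, red lines are medians and dashed lines mark 1.5-fold. The medians run from 0.13 for paralogs to -0.68 for the mRNAs targeted by tristetraprolin or Regnase-1.

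Across the 10 libraries, the 2 genes whose log2 CPM was most like that of each member were named among 9562 genes with a mean of at least 5 CPM. The closest were *Casp4* and *Irak2* for *Tnfaip3*, *Traf1* and *Slc11a2* for *Tnip1*, *Plk2* and *Clec4e* for *Tnip3*, and *Rgs16* and *Ppa1* for *Socs1*. For *Socs3* they were *Tnf* and *Acod1*, for *Cish* *Sdc4* and *Slc15a3*, for *Irak3* *Mtmr14* and *Psma6*, for *Zc3h12a* *Igf2bp2* and *Micall2*, for *Zfp36* *Cd40* and *Slc31a2*, and for *Peli1* *Golt1b* and *Appbp2*. Pearson's r ranged from 0.978 to 0.99988, and all points share the step from 2 libraries without LPS to 8 with it. Within the 8 LPS libraries, which differ in dose, r between members was 0.95 for *Tnfaip3* and *Zfp36* and 0.97 for *Cish* and *Zfp36*. *Tnip3* had an r of -0.56 with *Tnfaip3* and -0.72 with *Zfp36*.

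The summed level of the macrophage markers was lower in the treated groups. Over the 10 markers it was 11296 to 12300 CPM in DMSO, 10633 to 10758 CPM in DMSO + LPS, 9943 to 10121 CPM with 3.2 µM, 8801 to 9634 CPM with 10 µM and 8264 to 8752 CPM with 32 µM, with no marker at 0. Between DMSO and DMSO + LPS the sum joined opposed changes. *Lyz2* fell from 6453 to 4127 CPM and *Csf1r* from 2267 to 814 CPM, whereas *Cd14* rose from 1139 to 3311 CPM. Single markers went both ways with LPS, with 4 called higher, 2 called lower and a median log2 fold change of 0.32, and *Cd14* rose from 1139 to 3311 CPM. At 32 µM 3 were called lower against DMSO + LPS (2.91% of all genes), which were *Fcgr1*, *Itgam* and *Lyz2*, and 0 higher (1.27%). Without the fold cutoff, 5 were lower (5.72% of all genes) and 1, *Csf1r*, was higher with an adjusted p below 0.05. *Csf1r* went from 814 to 1071 CPM (log2 fold change 0.40). The summed level of the 16 markers of other cell types was 77.5 to 80.9 CPM in DMSO, 86.2 to 91.7 in DMSO + LPS, 91.1 to 92.1 at 3.2 µM, 91.3 to 106 at 10 µM and 80.6 to 83.1 at 32 µM, with 5 to 10 of them at 0 in each library. The part of these levels in the members' values was not tested. Without replicate 1 at 10 µM, the library with the most *Epcam* counts, 0 members were called at that dose and 0 had an adjusted p below 0.05. Both counts were also 0 without replicate 2 at 10 µM, without either 3.2 µM library and without either DMSO + LPS library.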

How the data were processed

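Poly(A)-selected, directional RNA-seq libraries were sequenced together on 1 lane. The values the authors deposited are raw counts on Ensembl genes, not normalized. The submitters' processing notes name Trimmomatic, FastQC, STAR, DESeq2 and mm10. The counting tool, annotation and use of the strand are not given in the sources used here. The labels number libraries within a group as biological replicates and do not say whether these were separate cultures, so p-values measure the spread between these libraries, which may be technical.

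Symbols and positions came from GENCODE M21 on GRCm38. The 970 identifiers without a symbol held 0.132% of counts. Genes were kept by filterByExpr (minimum count 10), scaled by TMM and fitted in edgeR 4.0.16 (R 4.3.3) with 1 mean per condition over all 10 libraries, which left 5 residual degrees of freedom and gave a common coefficient of biological variation of 0.128. Adjusted p is the Benjamini-Hochberg value of the two-sided quasi-likelihood F test over 14172 genes, and a call also needs a 1.5-fold change. The smallest p of an exact permutation test of 2 against 2 libraries is 0.333. CPM and RPKM refer to TMM-scaled totals, and intervals are 95%. At 5 CPM the smallest library has a counting error of 6.60%, which covers read sampling only. Steps were tested on simulated data with 200 changed genes. The authors' own comparisons were not used.

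The members and lists were chosen with earlier results of these data known. Named genes are all members, of each list the 3 highest and 3 lowest called with LPS and at 32 µM and any called at 10 or 3.2 µM (not all are printed), the 2 genes most like each member, and at most 5 promoters with a match. Protein sequences were not used here. RefSeq promoter orientation was checked: bases after the start lay in a GENCODE transcript for 10 of 12 windows. Alternatives were DESeq2 1.42.0 size factors and Wald test, a filter at a mean of 5 CPM or none, library size alone, edgeR on the 4 libraries compared or with a likelihood ratio test, a replicate block, a score of transcripts under 1000 nt (464 genes), a 2-fold or no fold cutoff, and leaving out each library, where a lone library is assumed to vary like the other groups.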

Additional observations from a re-analysis of the deposited data

How the results depend on the processing

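The 9 members called higher with LPS and the 9 called higher at 32 µM with LPS against DMSO kept their calls under every alternative in which they were tested, except *Irak3*, which at 1.89-fold was not called at 32 µM against DMSO with a 2-fold cutoff (8 called). *Peli1* passed the fold cutoff with LPS, at 0.60, only when the short-transcript score was in the fit. A mean of at least 5 CPM left *Cish* untested. Each group has 2 libraries, and the main fit pools the spread over all groups. With edgeR on the 4 libraries compared, *Tnfaip3* (-0.60, adjusted p = 0.0041) and *Cish* (-1.19, adjusted p = 0.032) kept their calls at 32 µM. The call of *Socs1* between doses was lost there (adjusted p = 0.404). Levels near 1 CPM, as for *Cish*, limit what can be told from counts of 40 to 117.

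Members called at 32 µM numbered 1 with library size alone (*Tnfaip3* at -0.585, just inside the cutoff), 1 with a mean of at least 5 CPM, 1 with a 2-fold cutoff and 7 with no fold cutoff, and from 0 to 2 when single libraries were left out. At 10 µM the count was 1 with the short-transcript score (*Cish*, -0.76, adjusted p = 0.0351) and 1 with no fold cutoff. With no fold cutoff, genes passing in either direction numbered 1386 at 32 µM, 378 at 10 µM and 391 between 32 and 10 µM, of 14172 tested. Between 32 and 10 µM it was 0 with edgeR on the 4 libraries compared (*Socs1* adjusted p = 0.404), 0 with the score (*Socs1* -0.52), 0 with a 2-fold cutoff, 4 with no fold cutoff and from 0 to 1 when single libraries were left out. There members with an adjusted p below 0.05 numbered from 0 to 3. Called paralogs numbered 1 at 32 µM with a 2-fold cutoff, 8 with LPS and no fold cutoff, and from 0 to 3 at 32 µM without single libraries. Called TLR4 receptor and transducer genes numbered 5 with LPS and a 2-fold cutoff, 16 with LPS and no fold cutoff, and 3 at 32 µM with no fold cutoff. The causes were not tested beyond what each setting changes.

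Values that changed sign were all small and uncalled. With DESeq2 size factors the log2 fold changes were -0.0044 for *Peli1* at 10 µM and, at 3.2 µM, -0.0029 for *Tnip3* and -0.0011 for *Socs1*. With library size alone they were -0.0073 for *Tnip3* and -0.0055 for *Socs1* at 3.2 µM. Without a count filter they were -0.018 for *Peli1* at 10 µM, and -0.014 for *Tnip3* and -0.012 for *Socs1* at 3.2 µM. With a mean of at least 5 CPM they were -0.0038 for *Tnip3* and -0.0019 for *Socs1* at 3.2 µM, and with edgeR on 4 libraries -0.0014 for *Tnip3* at 3.2 µM. DESeq2's Wald test gave -0.0044 for *Peli1* at 10 µM, and -0.0029 for *Tnip3* and -0.00091 for *Socs1* at 3.2 µM. The short-transcript score gave -0.062 for *Socs1* and 0.058 for *Peli1* at 3.2 µM. Leaving out single libraries moved *Tnip3* between -0.049 and 0.0076, *Socs1* between -0.11 and 0.17 and *Peli1* between -0.11 and 0.087 at 10 µM. At 3.2 µM it moved *Tnip3* between -0.022 and 0.023, *Socs1* between -0.025 and 0.030, *Irak3* between -0.046 and 0.039 and *Peli1* between -0.080 and 0.073.

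Differences between replicates 1 and 2 correlated at 0.10 to 0.57 over the 6 pairs of groups without DMSO + LPS, and at -0.17 to -0.066 over the 4 pairs with it. Since not every pair was above 0.1, the replicate numbers were not taken to pair the libraries. With the replicate block, 9, 2, 0 and 0 members were called with LPS and at 32, 10 and 3.2 µM, and genes called at 10 µM numbered 174, against 122 without it. Of the members, *Peli1* changed sign at 10 µM under the block, at -0.00073.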
